A study of Mus musculus with 17 samples.

Results

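Chromatin accessibility was described at the genes of 8 cytokine receptor chains of the B lineage, Il10ra, Il21r, Il4ra, Il6ra, Il6st, Il2ra, Il5ra and Ifngr1, as B cells of the mouse went from the naive state (nB) to the germinal center (GCB) and then to plasma cells of the bone marrow (BMPC). A region was taken as a member when the deposited annotation named one of these genes as its nearest transcript or its nearest transcription start site, and 88 of the 66177 regions met this rule. Il21r held 16 regions, Il6st 15, Il10ra and Il6ra 12 each, Il2ra and Il5ra 10 each, Ifngr1 9 and Il4ra 8. Il4ra and Il21r are neighbours on chromosome 7, and 4 of the regions between them counted for both genes. Accessibility was measured by ATAC-seq, in which a transposase cuts open chromatin, and each value is a region's reads scaled by the total over all regions of its library, in reads per 1000000 (RPPM).

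All mice were Dnmt3a fl/fl Dnmt3b fl/fl, that is, both de novo DNA methyltransferase genes were floxed, with alleles given in the labels as Dnmt3atm3.1Enl and Dnmt3btm5.1Enl of the strain B6;129S4, while the methods of the study name the Dnmt3a allele differently. Dnmt3-deficient mice (KO) also carried 1 Cre allele that is active in the B lineage, and Dnmt3-sufficient littermates (C) carried none. The mice were 8 to 12 weeks old at the start. nB (B220+ GL7- Fas-) came from lymph nodes of naive mice, while GCB (B220+ Fas+ GL7+ PE+) from lymph nodes and BMPC (CD138+) from bone marrow were taken 30 days after immunization with phycoerythrin (PE) in complete Freund's adjuvant. There were 3 C and 2 KO libraries of nB, 2 C and 4 KO of GCB, and 3 C and 2 KO of BMPC, made from 3000 to 5000 sorted cells. A GCB library was a pool of 2 mice, of either sex. nB mice were all male and BMPC mice all female, so sex and cell type cannot be told apart between them, and neither can immunization. With so few libraries, the main test took the spread from 1 fit of all 6 groups. A p-value therefore rests on the spread between mice or pools of every cell type, and not only of the 2 groups compared.

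Libraries held 907959 to 8232313 reads in regions, with GCB the shallowest (median 1852987 reads, against 5308068 in nB and 6422265 in BMPC). With 3 reads as the limit, no read in a region allowed up to 0.364 to 3.30 RPPM depending on the library. Reads carried no molecular identifiers, so these limits cover counting error only. Of the B lineage markers, the start site of Cd79a, a signaling chain of the B cell receptor, held 34.6 to 44.1 RPPM in C nB, 26.8 to 29.0 in C GCB and 12.6 to 15.9 in C BMPC, and that of Pax5, a B lineage transcription factor, held 36.0 to 45.3, 23.8 to 24.8 and 2.02 to 3.77 RPPM. Those of Cd79b (27.0 to 28.6, 16.9 to 21.6 and 8.97 to 9.12 RPPM) and Cd22 (14.3 to 23.6, 7.92 to 10.8 and 1.64 to 1.87 RPPM) stood in the same order. Ms4a1 held 78.0 to 84.3, 82.9 to 88.4 and 11.7 to 14.6 RPPM, and Ebf1 12.1 to 17.8, 5.28 to 13.1 and 12.6 to 17.2 RPPM, so that neither followed it. The start sites of 6 plasma cell markers summed to 165 to 184, 141 to 145 and 236 to 259 RPPM in C nB, GCB and BMPC. Those of 6 germinal center markers summed to 127 to 131 in C nB and 182 to 183 in C GCB. The 9 regions of Dnmt3a and the 4 of Dnmt3b changed by a log2 fold of -0.10 to 1.17 and -0.17 to 0.42 from C to KO BMPC, with no smaller adjusted p than 0.0947. None is known to lie in the deleted exons, so they do not check the genotype. In bulk libraries, fewer cells with an open region and less opening per cell cannot be told apart.

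Cytokine receptors pass their signal through JAK kinases bound to their chains and STAT factors that then act in the nucleus. Il10ra, Ifngr1 (both class II chains), Il4ra, Il21r, Il2ra, Il5ra and Il6ra give a receptor its choice of cytokine, whereas Il6st (gp130) is the signalling chain that Il6ra shares with several related receptors. IL-4 and IL-21 are the help that T follicular cells give to GCB, IL-6 is known as a survival factor of plasma cells in bone marrow, and IL-5 acts on some B cells and on eosinophils.

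Sequences are shown for the 6 regions with the largest fold changes among those named below for a change between C cell types. Start-site regions and 1 region that overlaps a UTR were left out. The middle 240 bases of each region are read from the + strand of mm9 (NCBIM37). Capitals mark matches, on either strand, to the motifs of factors that act in blood cells. PU.1, an ETS factor of B and myeloid cells, was searched as GGAAGT. E2A, a helix-loop-helix factor that sets up the B lineage, was searched as CAGCTG. For IRF4, which plasma cells need, the letters were GAAAC. STAT factors, the targets of these receptors, were given by TTCNNNGAA. Gata factors, known from erythroid cells and eosinophils, were given by AGATAA. The first 2 regions were far lower in BMPC than in nB and GCB, the third was open most in GCB, and the fourth fell from nB to BMPC. The fifth rose in BMPC, and the sixth lies upstream of the gene whose start site was the most open.
Il10ra, 1557 bp upstream, chr9:45078666-45078905, + strand: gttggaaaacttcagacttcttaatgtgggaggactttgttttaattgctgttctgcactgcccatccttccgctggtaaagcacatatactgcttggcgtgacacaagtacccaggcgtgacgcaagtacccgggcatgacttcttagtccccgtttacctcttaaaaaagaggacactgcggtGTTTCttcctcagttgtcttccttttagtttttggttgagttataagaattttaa
Il21r, 3725 bp upstream, chr7:132743098-132743337, + strand: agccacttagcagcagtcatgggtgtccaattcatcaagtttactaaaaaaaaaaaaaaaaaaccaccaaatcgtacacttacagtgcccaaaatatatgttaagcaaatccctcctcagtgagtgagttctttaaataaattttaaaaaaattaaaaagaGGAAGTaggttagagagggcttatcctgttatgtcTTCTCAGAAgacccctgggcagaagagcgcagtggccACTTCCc
Il21r, 1358 bp upstream, chr7:132745465-132745704, + strand: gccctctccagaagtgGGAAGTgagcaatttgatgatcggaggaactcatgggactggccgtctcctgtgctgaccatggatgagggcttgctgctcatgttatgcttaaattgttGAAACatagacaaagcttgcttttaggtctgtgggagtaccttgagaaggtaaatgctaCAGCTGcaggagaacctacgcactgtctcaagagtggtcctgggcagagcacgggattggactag
Il4ra, 10092 bp upstream, chr7:132685584-132685823, + strand: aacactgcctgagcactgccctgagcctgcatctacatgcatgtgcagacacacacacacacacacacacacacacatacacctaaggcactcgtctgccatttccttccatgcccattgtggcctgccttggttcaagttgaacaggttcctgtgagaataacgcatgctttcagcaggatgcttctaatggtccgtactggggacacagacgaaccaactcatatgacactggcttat
Il6st, 39078 bp upstream, chr13:113215080-113215319, + strand: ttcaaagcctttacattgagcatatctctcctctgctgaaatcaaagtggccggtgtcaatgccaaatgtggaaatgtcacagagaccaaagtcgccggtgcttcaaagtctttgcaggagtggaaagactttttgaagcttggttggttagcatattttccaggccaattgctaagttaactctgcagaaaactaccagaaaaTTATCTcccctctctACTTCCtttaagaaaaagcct
Ifngr1, 7612 bp upstream, chr10:19304032-19304271, + strand: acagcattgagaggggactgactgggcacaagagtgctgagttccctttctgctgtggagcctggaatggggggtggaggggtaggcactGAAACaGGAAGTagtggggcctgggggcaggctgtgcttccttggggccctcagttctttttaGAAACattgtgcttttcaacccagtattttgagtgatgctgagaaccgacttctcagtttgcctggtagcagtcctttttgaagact
The Il10ra window held 1 IRF4 match, the Il21r window at 3725 bp held 2 PU.1 matches and 1 STAT match, and the one at 1358 bp held 1 match each of PU.1, E2A and IRF4. The Ifngr1 window held 1 PU.1 and 2 IRF4 matches, the Il6st window 1 PU.1 and 1 Gata match, and the Il4ra window none of the letters searched.

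Differences were tested by fitting limma to log2(RPPM + 1) in the whole table, and a region was called when its Benjamini-Hochberg adjusted p was at most 0.01 and it changed at least 2-fold on that scale. From C nB to C BMPC, 39 of the 88 member regions were lower (44.3%) and 12 were higher (13.6%), where 20.1% of all regions were lower and 18% higher. From C GCB to C BMPC, 30 were lower (34.1%) and 10 higher (11.4%), against 19.1% and 11.3% of all regions. From C nB to C GCB, 14 were lower (15.9%) and 8 higher (9.09%), against 8.47% and 14.2%. The median log2 fold change of the member regions was -0.84, -0.30 and -0.31 in these comparisons, and that of all regions 0.03, -0.06 and 0.05. Regions that share a gene are not independent of each other.

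The same comparisons in Dnmt3-deficient cells used other libraries. From KO nB to KO BMPC, 33 regions were lower and 11 higher, against 16.9% and 18.4% of all regions, and from KO GCB to KO BMPC 29 were lower and 13 higher, against 19.9% and 12.1%. From KO nB to KO GCB, 10 were lower and 7 higher, against 7.84% and 18.4%. Of the 51 member regions called from C nB to C BMPC, 40 were called in the same direction in KO, which is 78.4% of the C calls and 90.9% of the KO calls, and over all regions these shares were 79.9% and 86.3%. For C GCB to C BMPC, 31 were called in both, 77.5% of the 40 C calls and 73.8% of the 42 KO calls, against 77.7% and 73.9% over all regions. For C nB to C GCB 13 were called in both, 59.1% of the 22 C calls and 76.5% of the 17 KO calls, where all regions had 76.9% and 66.5%, so the share of C calls was below and the share of KO calls above that of all regions, a difference that was not tested.

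**Figure D1:**
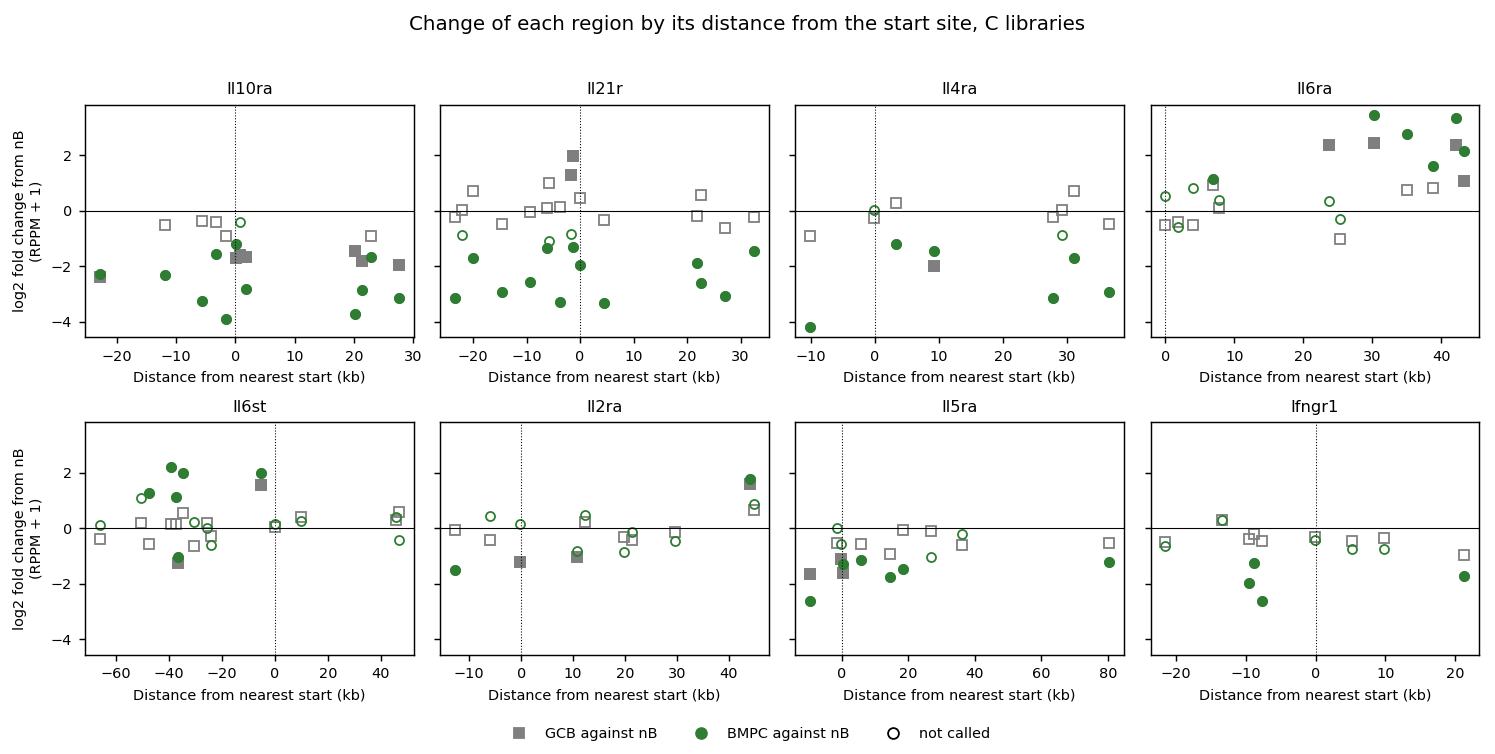
Log2 fold change from nB of each region (vertical, on log2(RPPM + 1)) against the distance of its centre from the nearest start site of the gene (horizontal, kb), for GCB (grey squares) and BMPC (green circles) in C libraries; filled symbols were called, open symbols were not. Il10ra, Il21r and Il4ra lie mostly below 0 in BMPC, Il6ra rises toward the far end of the gene, and Il6st rises upstream of its start.

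Start-site regions and the others were also counted apart. From C nB to C BMPC, 2 of the 8 were lower and none was higher, while 37 of the other 80 were lower and 12 higher. This split was not made over all regions of the series, so it is not shown to be particular to these genes. Per kb of region, the C nB start sites ran from Ifngr1 (109 ± 11.01 RPPM per kb, SD, n = 3) through Il21r (59.3 ± 0.920), Il5ra (42.9 ± 8.25), Il6st (42.5 ± 3.83), Il4ra (41.0 ± 7.32), Il6ra (32.8 ± 3.29) and Il10ra (28.8 ± 5.47) to Il2ra (15.9 ± 2.28). Il5ra, Il6st and Il4ra lay within each other's spread, as did Il6ra and Il10ra. In C GCB, Ifngr1 (86.6 ± 4.62, n = 2) and Il21r (81.8 ± 6.99) stood at the top within each other's spread, followed by Il6st (44.6 ± 5.83), Il4ra (33.9 ± 0.550), Il6ra (22.7 ± 1.25) and Il5ra (19.1 ± 4.32), with Il10ra (7.75 ± 0.345) and Il2ra (6.44 ± 3.03) at the bottom. In C BMPC, Ifngr1 (81.3 ± 4.50, n = 3) led Il6ra (47.2 ± 4.01), Il6st (47.0 ± 1.97) and Il4ra (41.4 ± 2.88), then Il5ra (28.0 ± 4.81), while Il2ra (17.7 ± 2.23), Il21r (14.2 ± 2.14) and Il10ra (11.9 ± 4.04) lay lowest.

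**Figure D2:**
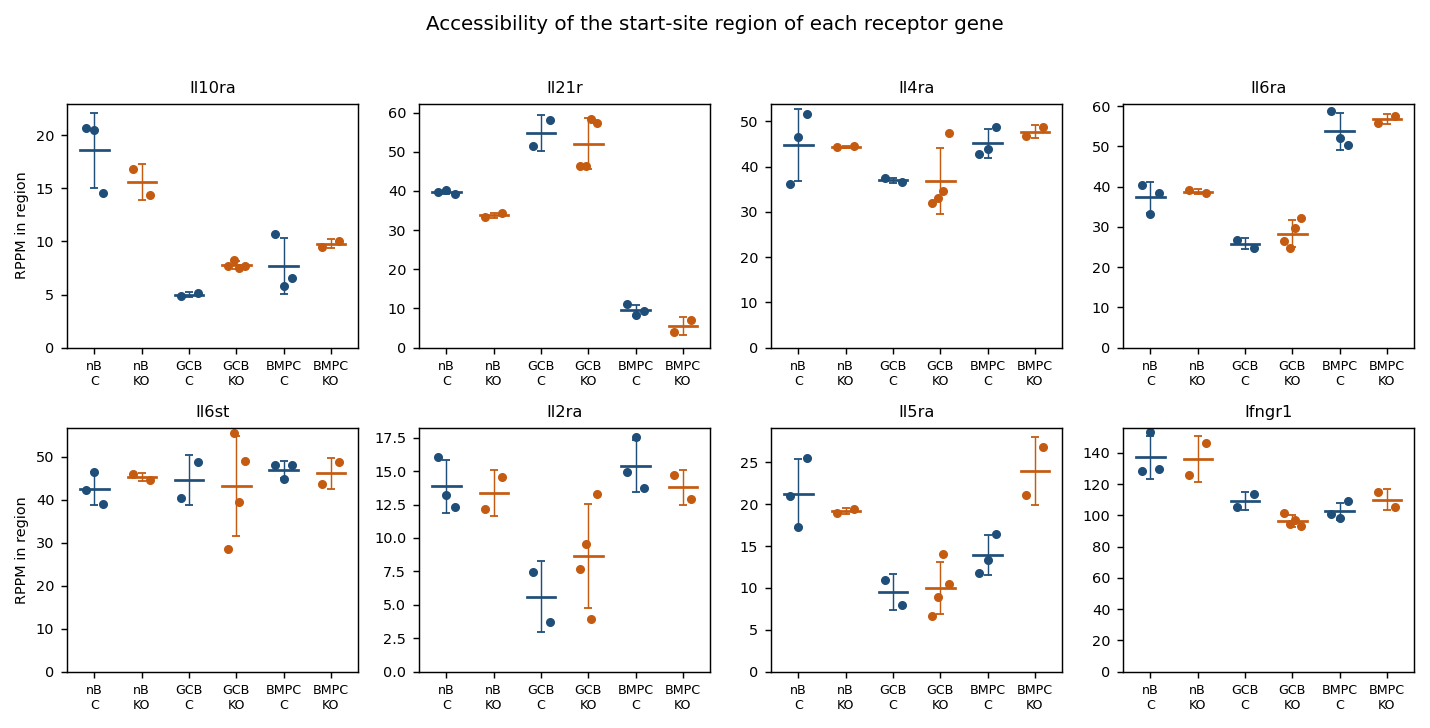
RPPM in the start-site region of each gene (vertical, from 0) in every library, by cell type and genotype (C blue, KO orange); horizontal bars are means and error bars 1 SD. The Il21r start site fell from 39.7 and 54.8 RPPM in C nB and GCB to 9.54 in BMPC, while those of Il4ra and Il6st stayed between 37.0 and 47.0 RPPM in the means of all 3 C cell types.

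Il10ra, the ligand-binding chain of the IL-10 receptor, lost accessibility at most of its regions on chromosome 9. Its 12 regions summed to 222, 175 and 181 RPPM in the C nB libraries, 81.4 and 74.5 in C GCB, and 49.6, 26.5 and 34.3 in C BMPC. The C libraries of the 3 cell types did not overlap. The Cd79a, Cd79b, Cd22 and Pax5 start sites stood in the same order, highest in nB and lowest in BMPC, and those of Ms4a1 and Ebf1 did not; their part in the result was not tested. On the sums, limma gave -1.29 ± 0.17 (log2 fold change and SE) between nB and GCB (adjusted p = 1.14e-06) and -2.40 ± 0.15 between nB and BMPC (adjusted p = 2.55e-12). In C, 7 of the 12 regions were lower in GCB and 11 of 12 were lower in BMPC, and none was higher than in nB.

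The region 1557 bp upstream of Il10ra (chr9:45078593-45078980, in the promoter) was the one of its regions with the smallest adjusted p from C nB to C BMPC. It held 19.7, 16.4 and 17.1 RPPM in C nB, 10.6 and 7.49 in C GCB, and 0.390, 0.182 and 0.156 in C BMPC. BMPC levels were thus at or below the counting limit of those libraries. The change from nB to BMPC was -3.92 ± 0.25 (adjusted p = 2.25e-13), and in KO it was -3.53 ± 0.30 (adjusted p = 2.09e-10). At the start site itself (chr9:45076846-45077490, promoter, 5' UTR, exon and intron) the levels were 20.7, 20.5 and 14.5 in C nB, 4.84 and 5.15 in C GCB, and 10.7, 5.84 and 6.54 RPPM in C BMPC. It fell by 1.69 ± 0.24 from nB to GCB (adjusted p = 2.23e-06), and both GCB libraries lay below every BMPC library.

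Il21r, the specific chain of the IL-21 receptor, was open in nB and GCB and lower in BMPC. Its 16 regions summed to 292, 282 and 270 RPPM in C nB, 294 and 335 in C GCB, and 72.2, 45.6 and 55.3 in C BMPC. GCB lay just above nB, and every BMPC library was far below both. The log2 fold change on the sum was 0.16 ± 0.12 from nB to GCB (adjusted p = 0.290), -2.29 ± 0.11 from nB to BMPC (adjusted p = 1.70e-14) and -2.45 ± 0.12 from GCB to BMPC (adjusted p = 1.18e-13). From GCB to BMPC, 15 of 16 regions were lower in C and 15 of 16 in KO.

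At the Il21r start site (chr7:132746518-132747187, promoter, 5' UTR and exon), accessibility was 39.7, 40.3 and 39.1 RPPM in C nB, 51.5 and 58.1 in C GCB, and 11.1, 8.21 and 9.34 in C BMPC. BMPC was lower than nB by a log2 fold change of -1.96 ± 0.16 (adjusted p = 5.90e-11). The rise in GCB, 0.45 ± 0.18 (adjusted p = 0.0471), was not called. The region 3725 bp upstream (chr7:132742949-132743488, outside genes) held 31.9, 31.5 and 29.4 in C nB, 35.2 and 32.8 in C GCB, and 3.12, 1.46 and 2.49 RPPM in C BMPC, a change of -3.41 ± 0.21 from GCB to BMPC (adjusted p = 2.48e-13).

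The promoter region 1358 bp upstream of Il21r (chr7:132745446-132745724) had another course. It held 4.14, 7.72 and 3.91 RPPM in C nB, 20.2 and 25.3 in C GCB, and 1.43, 1.09 and 1.87 in C BMPC. GCB stood above both other cell types in every library, with a log2 fold change of 1.97 ± 0.32 from nB (adjusted p = 1.29e-05) and -3.27 ± 0.32 to BMPC (adjusted p = 1.90e-09). Its KO GCB libraries held 11.01, 22.9, 21.5 and 18.9 RPPM, and the rise from KO nB was 1.60 ± 0.30 (adjusted p = 7.90e-05). Its neighbour 1691 bp upstream (chr7:132745078-132745426) was the other Il21r region called higher in C GCB, going from a mean of 7.01 RPPM in C nB to 19.0 in C GCB and 3.45 in C BMPC.

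Il4ra, the chain that binds IL-4 and pairs with the common gamma chain, had a start site at like levels in all 3 cell types and regions around it that lost accessibility. The start-site region (chr7:132695119-132696210, promoter, 5' UTR, exon and intron) held 36.1, 46.5 and 51.7 RPPM in C nB, 37.4 and 36.5 in C GCB, and 42.8, 44.0 and 48.7 in C BMPC. The 3 cell types overlapped except that both GCB libraries lay below all BMPC libraries, and no C comparison was called (largest change 0.28 ± 0.16 from GCB to BMPC, adjusted p = 0.138). The region 10092 bp upstream (chr7:132685115-132686294, outside genes) held 58.7, 58.2 and 59.0 in C nB, 28.1 and 33.7 in C GCB, and 2.73, 2.19 and 2.02 in C BMPC. Its change of -4.18 ± 0.17 from nB to BMPC (adjusted p = 6.00e-17) had the smallest adjusted p of all member regions in that comparison. In KO it held 44.6 and 46.1 RPPM in nB and 3.04 and 1.87 in BMPC (-3.77 ± 0.21, adjusted p = 6.72e-14).

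In the Il4ra intron 9195 bp from the start (chr7:132704735-132705248), C nB held 7.80, 11.7 and 11.2 RPPM, C GCB 1.32 and 2.34, and C BMPC 2.73, 3.65 and 2.80. It fell by 1.99 ± 0.40 from nB to GCB (adjusted p = 0.000197), and no GCB or BMPC library reached the nB range. Of the 8 Il4ra regions, 6 were called lower from C nB to C BMPC and 4 of these also in KO, and 3 of those 4 are among the regions shared with Il21r. The sum fell from a mean of 203 ± 4.04 RPPM in C nB (SD, n = 3) to 163 ± 17.8 in C GCB (n = 2) and 77.7 ± 3.05 in C BMPC (n = 3), a log2 difference of -1.38 ± 0.09 between nB and BMPC (adjusted p = 9.45e-12).

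Il6ra, the chain that binds IL-6, went the other way. Its 12 regions summed to 115, 105 and 113 RPPM in C nB, 135 and 116 in C GCB, and 220, 198 and 204 in C BMPC. BMPC stood above all other libraries, and nB and GCB were close. The change from nB to BMPC was 0.89 ± 0.10 (adjusted p = 2.05e-08), which passed the p limit but not the 2-fold limit. From C nB to C BMPC, 6 of the 12 regions were higher and none lower, and from C nB to C GCB 4 were higher and none lower.

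The region near the 3' end of Il6ra, 42118 bp from the start (chr3:89674576-89675357, exon, intron and 3' UTR), was low in nB. It held 2.68, 1.88 and 1.86 RPPM in C nB, 14.5 and 15.9 in C GCB, and 31.0, 32.1 and 27.6 in C BMPC. The 3 cell types did not overlap and rose in that order, by 2.38 ± 0.23 from nB to GCB (adjusted p = 3.77e-09) and 3.32 ± 0.21 from nB to BMPC (adjusted p = 1.50e-13). In KO, BMPC held 32.1 and 37.9 RPPM and nB 2.80 and 1.57 (3.52 ± 0.25, adjusted p = 6.87e-12). The start-site region (chr3:89716494-89717631, promoter, 5' UTR, exon and intron) dipped in GCB, with 40.4, 33.2 and 38.3 RPPM in C nB, 26.8 and 24.8 in C GCB, and 58.9, 52.0 and 50.3 in C BMPC. From GCB to BMPC it rose by 1.03 ± 0.14 (adjusted p = 6.79e-07), a call that fell just under the 2-fold limit without C GCB replicate 2 (0.97) or without C BMPC replicate 1 (0.96).

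Il6st, the signalling chain gp130, had a start site that was not called and regions upstream that opened in BMPC. The start-site region (chr13:113253751-113254750, promoter, 5' UTR, exon and intron) held 42.1, 46.5 and 38.9 RPPM in C nB, 40.5 and 48.7 in C GCB, and 48.1, 44.7 and 48.1 in C BMPC. The cell types overlapped, and the change from nB to BMPC was 0.14 ± 0.16 (adjusted p = 0.460). The region 39078 bp upstream (chr13:113214562-113215839, outside genes) held 8.04, 9.04 and 9.31 in C nB, 10.1 and 9.84 in C GCB, and 42.8, 46.5 and 44.2 in C BMPC. Every BMPC library lay far above all others, with a change of 2.22 ± 0.19 from nB (adjusted p = 1.52e-10) and 2.05 ± 0.22 from GCB (adjusted p = 1.04e-08). In KO, it rose from 11.4 and 11.4 RPPM in nB to 47.5 and 44.0 in BMPC (1.92 ± 0.24, adjusted p = 1.57e-07).

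Another Il6st region, 5320 bp upstream (chr13:113248831-113249085, outside genes), had no read in any C nB library. It held 1.32 and 2.81 RPPM in C GCB and 2.47, 2.37 and 4.36 in C BMPC, and the BMPC mean was at least 4.20-fold higher than the 0.731 RPPM that 3 reads make in the shallowest C nB library. The call from C nB to C GCB (adjusted p = 0.000969) was lost without C GCB replicate 2 (adjusted p = 0.0352). KO BMPC held 0.972 and 1.49 RPPM there, and the rise from KO nB was not called (adjusted p = 0.0318). Over its 15 regions, Il6st had 5 higher and 1 lower from C nB to C BMPC, and the sum was 196, 206 and 196 RPPM in C nB, 186 and 195 in C GCB, and 250, 241 and 259 in C BMPC (0.32 ± 0.12 from nB to BMPC, adjusted p = 0.0203).

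Il2ra, the alpha chain that gives the IL-2 receptor its high affinity, changed little as a whole. Its sum was 176, 177 and 171 RPPM in C nB, 135 and 120 in C GCB, and 172, 174 and 175 in C BMPC. nB and BMPC overlapped and GCB lay below both, with a log2 fold change of -0.45 ± 0.08 from nB (adjusted p = 5.73e-05), under the 2-fold limit. The start-site region (chr2:11563801-11564671, promoter, 5' UTR and exon) held 16.1, 13.2 and 12.3 in C nB, 7.48 and 3.75 in C GCB, and 15.0, 17.5 and 13.7 RPPM in C BMPC, a fall of 1.22 ± 0.30 into GCB (adjusted p = 0.00188) that was not called without C nB replicate 1 (adjusted p = 0.0116) or without C GCB replicate 2 (adjusted p = 0.0931). The rise from GCB to BMPC (1.36 ± 0.30, adjusted p = 0.000466) was likewise lost without C GCB replicate 2 (adjusted p = 0.0400). In KO, the start site held 7.71, 9.55, 3.95 and 13.3 RPPM in GCB, and the fall from KO nB was not called (adjusted p = 0.0534).

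Within the Il2ra gene, the intronic region 10820 bp from the start (chr2:11574790-11575689) held 37.5, 36.4 and 35.4 RPPM in C nB, 17.2 and 17.8 in C GCB, and 21.1, 19.0 and 20.6 in C BMPC. All nB libraries stood above all GCB and BMPC libraries, and the fall into GCB was 1.02 ± 0.17 (adjusted p = 1.57e-05), just past the 2-fold limit. It came just under that limit without C nB replicate 1 or C GCB replicate 1, after quantile normalization and with a pseudocount of 5 (-0.88). The intronic region at 43969 bp (chr2:11608171-11608606) rose from 0.487, 1.70 and 0.744 RPPM in C nB to 4.40 and 5.15 in C GCB and 4.94, 6.39 and 5.29 in C BMPC (1.77 ± 0.37 from nB to BMPC, adjusted p = 0.000173). In KO the same change was 1.40 ± 0.45 and was not called (adjusted p = 0.0113).

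Il5ra, the ligand-binding chain of the IL-5 receptor, was lower in GCB and BMPC than in nB. Its 10 regions summed to 160, 153 and 181 RPPM in C nB, 101 and 105 in C GCB, and 87.1, 75.4 and 104 in C BMPC. nB lay above the other 2 cell types, which overlapped. The start-site region (chr6:106698900-106699395, promoter, 5' UTR and exon) held 21.0, 17.3 and 25.5 in C nB, 10.996 and 7.96 in C GCB, and 11.8, 13.3 and 16.5 RPPM in C BMPC. Its fall into GCB was 1.09 ± 0.24 (adjusted p = 0.000621), and dropped below the limits without C nB replicate 3 (0.95) or C GCB replicate 2 (0.88, adjusted p = 0.0263). The intronic region 18330 bp from the start (chr6:106675665-106676359) held 26.6, 23.4 and 23.6 in C nB, 20.7 and 27.2 in C GCB, and 8.06, 7.30 and 9.81 in C BMPC, with -0.04 ± 0.19 from nB to GCB (adjusted p = 0.870) and -1.40 ± 0.19 from GCB to BMPC (adjusted p = 5.78e-07).

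Ifngr1, the ligand-binding chain of the interferon gamma receptor, had the highest mean start-site level per kb of the 8 genes in each C cell type. The region (chr10:19311095-19312355, promoter, 5' UTR, exon and intron) held 128, 153 and 130 RPPM in C nB, 105 and 113 in C GCB, and 101, 98.0 and 109 in C BMPC. nB lay above the others, and the change to BMPC was -0.41 ± 0.09 (adjusted p = 0.000166), short of 2-fold. The region 7612 bp upstream (chr10:19303905-19304399, outside genes) held 9.26, 13.9 and 12.1 in C nB, 7.04 and 9.37 in C GCB, and 0.910, 1.28 and 0.934 in C BMPC. It fell by 2.63 ± 0.29 from nB to BMPC (adjusted p = 1.02e-08), with 3 further Ifngr1 regions called lower and none higher.

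**Figure D3:**
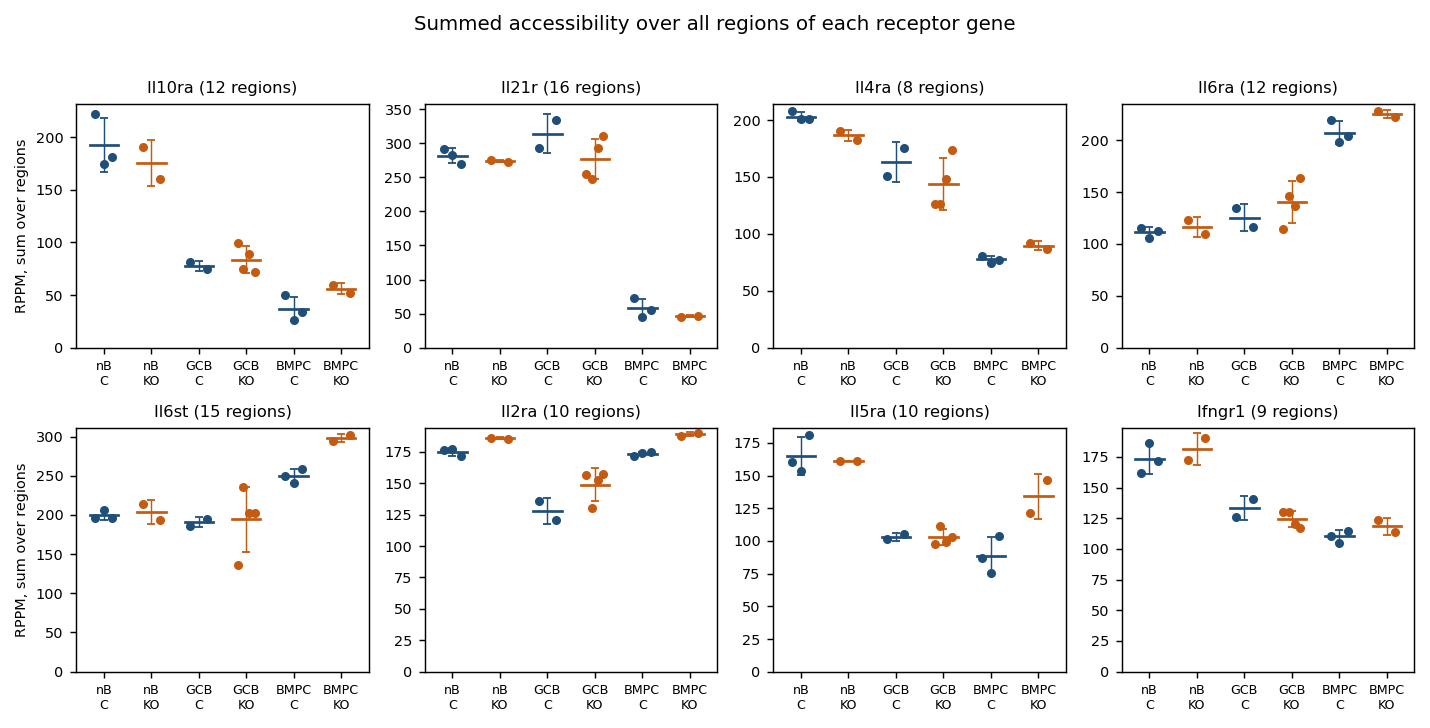
Sum of RPPM over all regions of each gene (vertical, from 0) in every library, by cell type and genotype (C blue, KO orange), with means and 1 SD. Il10ra, Il21r and Il4ra fall to 36.8, 57.7 and 77.7 RPPM in C BMPC, and Il6ra stands at 207 and Il6st at 250 RPPM there.

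Summed per gene, 3 of the 8 genes (Il10ra, Il21r and Il4ra) were called lower and none higher from C nB to C BMPC, where 20.6% of 15881 genes were called in either direction, and the same 3 were called lower from C GCB to C BMPC (19.8% of genes). From C nB to C GCB, Il10ra was called lower and the other 7 were not called (17.1% of genes). In KO, Il10ra, Il21r and Il4ra were called lower from nB to BMPC (20.5% of genes called in either direction, 1313 lower and 1943 higher). Il10ra was called lower from nB to GCB (20%, 656 lower and 2517 higher), and Il21r from GCB to BMPC (19.4%, 1986 lower and 1099 higher).

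Whether the loss of Dnmt3a and Dnmt3b moved these genes was asked within each cell type. By limma, no member region was called between C and KO in nB, where 0% of all regions were called, in GCB (0.0317% of all regions) or in BMPC (0.104%). At an unadjusted p under 0.05 there were 4 member regions in nB (4.55%, against 1.67% of all regions), 9 in GCB (10.2%, against 11.8%) and 21 in BMPC (23.9%, against 9.55%). Of the last, 16 were higher in KO and 5 lower, and of all regions at that limit 4607 were higher and 1713 lower. The other tools were run on whole reads recovered from the values and called none of the members in nB or GCB, with 7, 7 and 4 member regions at an unadjusted p under 0.05 in nB by edgeR's quasi-likelihood test, edgeR's likelihood ratio test and DESeq2, and 3, 3 and 5 in GCB. In BMPC the quasi-likelihood test called 7 members (6 higher and 1 lower in KO, 1.96% of all regions called), the likelihood ratio test 8 (7 higher and 1 lower, 2.84% of all regions) and DESeq2 2 (1 higher and 1 lower, 0.746% of all regions). Over all regions, these tests called 1135 higher and 159 lower, 1635 higher and 242 lower, and 409 higher and 85 lower. The median log2 fold change of the members from C to KO BMPC was 0.17, and 0.03 over all regions.

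Il5ra carried the smallest adjusted p of this comparison. Its intronic region 14442 bp from the start (chr6:106679674-106680126) held 4.03, 3.65 and 4.05 RPPM in C BMPC and 8.38 and 13.1 in KO BMPC, so that both KO libraries lay above all C libraries. The log2 fold change was 1.23 ± 0.24, with an adjusted p of 0.0112 by limma, just over the limit. The adjusted p was 6.26e-05 by the quasi-likelihood test, 1.31e-06 by the likelihood ratio test and 0.000538 by DESeq2, which all called it, 0.107 after quantile normalization, and 0.444 without KO BMPC replicate 2. In nB the same region held 16.1, 15.3 and 15.4 RPPM in C and 13.3 and 16.9 in KO. The difference between the genotype effects in BMPC and in nB was 1.28 ± 0.34, which did not pass over all regions (adjusted p = 0.385).

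Of the 10 Il5ra regions, 6 had an unadjusted p under 0.05 from C to KO BMPC and all 6 were higher in KO, among them the start site with 11.8, 13.3 and 16.5 RPPM in C BMPC and 21.1 and 26.9 in KO BMPC (0.75 ± 0.24, adjusted p = 0.170). The Il5ra sum was 87.1, 75.4 and 104 RPPM in C BMPC and 122 and 146 in KO BMPC, without overlap (0.60 ± 0.11, adjusted p = 0.00474 over all gene sums, under 2-fold and so not called). From nB to BMPC the Il5ra sum changed by -0.90 ± 0.10 in C (adjusted p = 2.82e-08) and by -0.27 ± 0.12 in KO (adjusted p = 0.0677), a difference that was not tested on the sums. Eosinophils also carry the IL-5 receptor: of 4 eosinophil markers 2 had a region. Prg2 held 15.4 to 17.4 RPPM in C BMPC, 12.5 to 12.6 in KO BMPC and 1.22 to 2.42 in C nB, while Ccr3, whose region lies 11301 bp from the start, held 3.65 to 4.98, 4.25 to 6.53 and 4.63 to 6.41 RPPM. T cell markers, 7 of 9 with a region, summed to 100.1 to 105.6 RPPM in C BMPC, 82.7 to 87.1 in KO BMPC and 102.5 to 114.3 in C nB. Myeloid markers summed to 21.5 to 26.4, 24.2 to 26.9 and 23.4 to 26.4 RPPM in the same groups. Both sums hide changes in both directions from C nB to C BMPC. Of the 7 T cell regions, 2 were called higher and 2 lower, and of the 6 myeloid regions 1 was called higher and 3 lower. Those called higher were at Cd28 (mean 2.60 to 27.8 RPPM), Cd4 (0.867 to 15.9) and the myeloid gene Cebpe (log2 fold change 1.99). Some of these regions lie away from a start site, such as those of Cd3d (4219 bp) and Mpo (14512 bp). The flow cytometry panels of the study held antibodies to CD11b, CD11c, CD90.2 and Ly6-G, markers of myeloid and T cells, in a channel for removal. The part of such cells in the result was not tested.

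At Il6st, 5 of 15 regions had more and 1 had less signal in KO BMPC at an unadjusted p under 0.05. The intronic region at 9920 bp (chr13:113264028-113264368) held 1.30, 0.912 and 0.623 RPPM in C BMPC and 4.13 and 5.79 in KO BMPC, with no overlap (1.62 ± 0.43, adjusted p = 0.0762 by limma, 0.000768 by the quasi-likelihood test, which called it, and 0.0114 by DESeq2). Il21r went down instead, with 4 of 16 regions lower and none higher at that limit. Its region 32497 bp from the start (chr7:132778957-132779923, outside genes) held 12.2, 10.4 and 10.9 in C BMPC and 4.86 and 7.09 in KO BMPC (-0.82 ± 0.18, adjusted p = 0.0227 by limma), and DESeq2 called it (-1.003, adjusted p = 0.00205). The region 1691 bp upstream, not called by limma (-1.07, adjusted p = 0.0481), was called by the quasi-likelihood test (-1.64, adjusted p = 0.00425). The Il21r start site held 11.1, 8.21 and 9.34 in C and 3.89 and 7.09 RPPM in KO (-0.74 ± 0.18, adjusted p = 0.0522 by limma), which moved to -0.37 (adjusted p = 0.855) without KO BMPC replicate 1. For the other genes, the smallest adjusted p by limma was 0.138 at Il10ra (22896 bp, 0.74 ± 0.23), 0.254 at Il4ra (9195 bp, 1.10 ± 0.40), 0.216 at Il6ra (38790 bp, 1.13 ± 0.39), 0.627 at Il2ra (6019 bp upstream, 0.23 ± 0.13) and 0.672 at Ifngr1 (13466 bp upstream, 0.73 ± 0.42). The quasi-likelihood test called the Il4ra region (adjusted p = 0.00184) and the Il6ra region (adjusted p = 0.00339), and DESeq2 called neither (adjusted p = 0.0164 and 0.148). By limma on the gene sums, none of the 8 was called from C to KO BMPC (0.208% of genes). The Il10ra sum held 49.6, 26.5 and 34.3 RPPM in C and 59.5 and 52.1 in KO, without overlap (0.63 ± 0.17, adjusted p = 0.0629). Only the Il21r sum was lower in KO (-0.30 ± 0.12, adjusted p = 0.345).

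**Figure D4:**
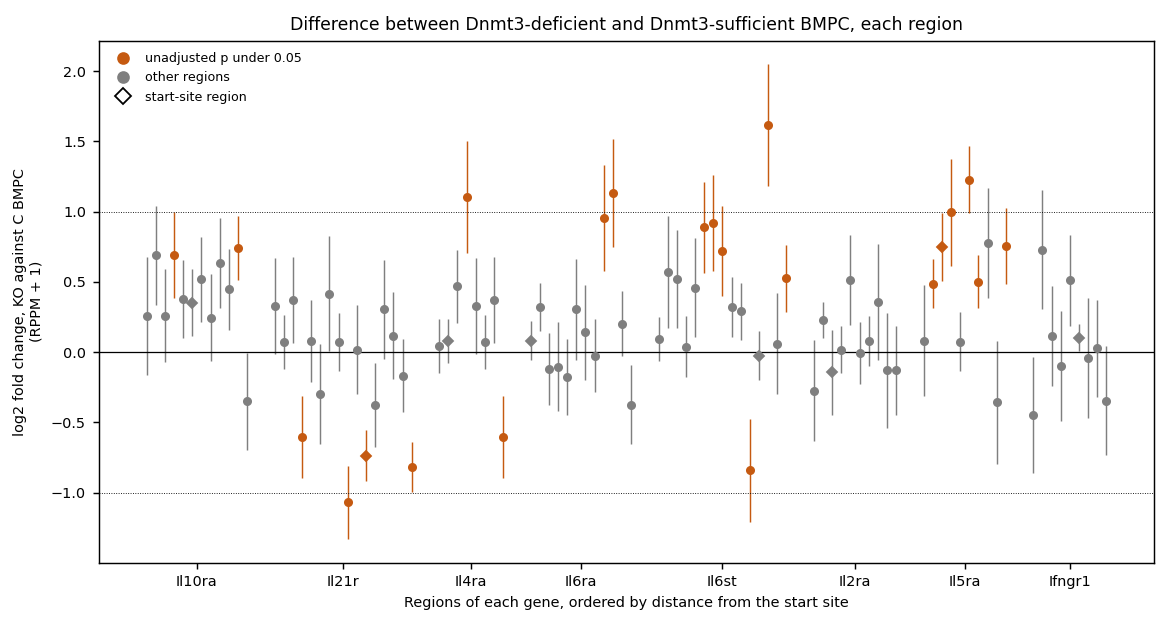
Log2 fold change from C to KO BMPC (vertical, on log2(RPPM + 1), error bars 1 SE) of every region, grouped by gene and ordered by distance from the start site; orange marks an unadjusted p under 0.05, diamonds mark start sites and dotted lines the 2-fold limits. Il5ra and Il6st lean above 0, with 1.23 and 1.62 at their strongest regions, and Il21r has the lowest value, -1.07.

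The other cytokine receptor chains were taken from 8 families by their start-site region, or the region nearest to it, and 43 of 48 had one. From C nB to C GCB, 8 of the 43 were higher and 3 lower (14.2% and 8.47% of all regions), from C nB to C BMPC 5 and 7 (18% and 20.1%), and from C GCB to C BMPC 4 and 8 (11.3% and 19.1%). Partners of the 8 genes were among them. Il2rg, the common gamma chain that pairs with Il4ra, Il21r and Il2ra, fell from 52.7 ± 2.41 RPPM in C nB (SD, n = 3) to 20.8 ± 3.57 in C GCB (n = 2), a change of -1.31 ± 0.18 (SE, adjusted p = 9.38e-07). Il2rb, the IL-2 receptor beta chain, rose from 2.17 ± 0.784 to 10.6 ± 3.06 (1.87 ± 0.31, adjusted p = 1.99e-05). In BMPC the largest falls from nB were at Lifr (24.4 ± 2.63 to 1.21 ± 0.772 RPPM, adjusted p = 5.07e-13) and, at the nearest region 5158 bp away, Csf3r (21.0 ± 3.91 to 2.53 ± 0.313, adjusted p = 1.82e-12), both relatives of gp130. The largest rises were at Kit (0.225 ± 0.246 to 5.93 ± 3.99, adjusted p = 2.86e-06) and Il13ra1 (1.75 ± 0.113 to 9.36 ± 0.672, adjusted p = 4.76e-07), which can also pair with Il4ra. Il13ra1 and Il2rg lie on the X chromosome, and the nB mice were male and the BMPC mice female. The part of sex in their changes was not tested. At Kit, the C nB mean lay below the counting limit of those libraries (0.558 to 0.731 RPPM), and the C BMPC libraries differed widely. All 7 class II chains with a region, Il10rb and Ifngr2 included, were uncalled from C nB to C BMPC. From C to KO BMPC the strongest, neither of them called, were Lifr (1.30 ± 0.26, adjusted p = 0.0158) and Il1r1 (-0.97 ± 0.21, adjusted p = 0.0204).

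Over the 16 libraries, the start sites most like that of each gene named here, by Pearson's r on log2(RPPM + 1) among 11533 start-site regions, were Pde4d (0.981) for Il21r, Acly (0.869) for Il4ra, Itgb1bp1 (0.972) for Il6ra, Ttc5 (0.960) for Il2ra, Slamf9 (0.906) for Il5ra and Lyrm7 (0.935) for Ifngr1. Within the 8 genes, Il21r and Il6ra ran most opposite (r = -0.895) and Il10ra and Ifngr1 most alike (r = 0.749). The libraries come from 6 groups, so the points share cell type, genotype and depth, and these values are a description.

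Motifs were counted in the 88 member regions and in 65891 regions searched, of median width 495.5 and 511 bases. The PU.1 letters were in 55.7% of member regions and 43.2% of all, and in 25 of the 39 member regions lower in C BMPC (64.1%) and 6 of the 12 higher there (50.0%). In those 39 and 12 regions, STAT letters were in 10.3% and 25.0%, and those of the ETS-IRF composite in 7.69% and 25.0%. The E2A letters were in 35.2% and 32.4%, the IRF4 letters in 76.1% and 72.6%, STAT in 21.6% and 16.2%, and Gata in 23.9% and 21.6%. The others were the ETS-IRF composite (GGAANNGAA, 15.9% and 19.3%), Oct-2 (ATGCAAAT, 7.95% and 5.87%), AP-1 (TGANTCA, 10.2% and 16%), EBF1 (TCCCNNGGG, 17.0% and 12.5%) and NF-kappaB (GGGANNTTC, 7.95% and 8.09%). Both strands were read, and a composite match can share letters with a PU.1 match. A match is a run of letters and was not tested as a binding site.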

How the data were processed

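ATAC-seq libraries of nB, GCB and BMPC were analysed from 1 table of 66177 regions by 16 libraries; a further KO BMPC sample named in the labels is not analysed here. The authors mapped trimmed reads to mm9 with Bowtie, called peaks per sample with MACS2, merged them, and deposited each region's reads per 1000000 reads in regions (RPM, which they call RPPM). The submitters' processing notes name Bowtie 1.1.1, Picard 1.127, MACS2 2.1.0.20140616 and edgeR 3.12.1. Peaks from all libraries define the regions, and the scaling assumes equal total accessibility, so a wide change would appear as its opposite elsewhere. Columns with the authors' own fold changes and p-values were not used. Every value was a whole number of reads (100% within 0.01 reads), from which counts were recovered for edgeR 4.0.16 and DESeq2 1.42.0, run as alternatives.

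The main test was limma 3.58.1 (R 4.3.3) with a variance trend on log2(RPPM + 1), all 6 groups in 1 fit, Benjamini-Hochberg over all regions, with calls needing an adjusted p no higher than 0.01 and a log2 fold change no smaller than 1; fold changes on this scale understate low regions. Gene sums were fitted likewise over 15881 genes, and again with sums by nearest transcript only. Scripts were tested on simulated data. Named regions were the start site of each gene, the called region with the smallest adjusted p per C comparison and the region with the smallest p from C to KO BMPC. Members and lists were chosen with earlier results of these data known. Replicates are separate mice or, for GCB, separate pools. Alternatives were other pseudocounts, a filter on low values, TMM and quantile scaling, compared groups only, an adjusted p limit of 0.05, other tools, and each library left out. GCB libraries of both genotypes carry the names F2 and M1 and come from separate mice. With 2 such libraries per genotype, their deviations from group means mirror each other, so the 2 pairs give 1 correlation. It was r = 0.063, and -0.063 with the names crossed, which cannot decide whether the libraries are paired. No block was used in the main fit. Some items are not reported here. Windows were read from NCBIM37 with pysam 0.24.0, and figures drawn with matplotlib 3.10.9.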

Additional observations from a re-analysis of the deposited data

Results flagged for a closer look

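Among the named regions and the 8 gene sums, 35 groups of 4 libraries (KO GCB) were examined for a library far from the others. Of these, 3 stood apart, where chance flags about 1 in 20. The sums contain the named regions, so the 35 are not independent of each other. At the Il6ra region 38790 bp from the start, KO GCB replicate 3 held 0.438 RPPM (1 read) and the other KO GCB libraries 1.91 to 2.20 (2 to 3 reads). At the Il6st region 9920 bp from the start, KO GCB replicate 4 held 0 RPPM (0 reads) and the others 2.20 to 2.63 (2 to 6 reads). At so few reads, these libraries are not shown to differ. At the Ifngr1 region 7612 bp upstream, KO GCB replicate 4 held 4.19 RPPM (6 reads) and the others 9.91 to 10.8 (9 to 23 reads).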

How the results depend on the processing

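No named value changed sign past a limit, and counts that moved by over 1.5 times are given here, with the cause not tested unless the setting itself removes libraries or raises the pseudocount. With a pseudocount of 5, the regions called fell to 6812 (12 members) from C nB to C GCB, 12287 (29) from C nB to C BMPC, 10080 (20) from C GCB to C BMPC, 7009 (8) from KO nB to KO GCB, 12757 from KO nB to KO BMPC and 10100 (20) from KO GCB to KO BMPC, and 5 from C to KO GCB. From C to KO BMPC, 69 regions were called by limma, 402 (2 members) at an adjusted p of at most 0.05, 183 with the compared groups only, 14 after quantile normalization, 1294 (7 members) by edgeR's quasi-likelihood test, 1877 (8) by its likelihood ratio test and 494 (2) by DESeq2. From C to KO GCB, 21 became 117 at an adjusted p of at most 0.05, 8 with the compared groups only, 1 by the quasi-likelihood test and 0 by DESeq2. From C to KO nB, 0 became 4, 9 and 1 by the quasi-likelihood, likelihood ratio and DESeq2 tests.

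The genotype effect in BMPC against that in GCB, called at 0 regions, was called at 10 at an adjusted p of at most 0.05, 10 with a pseudocount of 5, 1 after quantile normalization, and 21, 86 and 19 by the quasi-likelihood, likelihood ratio and DESeq2 tests. Against nB it was called at 3, 7 and, with the compared groups only, 23, and at 64, 245 and 28 by those tests. A replicate block on the GCB names F2 and M1, which are not shown to be paired, gave 10 regions from C to KO GCB and 0 members, and the same 4 libraries with no block, a setting chosen after seeing the data, gave 9 and 0.

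With 1 library left out, calls ran from 11485 to 17944 regions (10 to 20 members) from KO nB to KO GCB, lowest without KO nB replicate 1, from 0 to 2 from C to KO nB, 1 to 61 from C to KO GCB and 1 to 209 (0 to 1 members) from C to KO BMPC, with 1 region without either KO BMPC library, 11 and 15 without C BMPC replicate 2 and 3, 44 and 43 without KO nB replicate 1 and 2, 114 without C BMPC replicate 1, and 209 and 108 without KO GCB replicate 1 and 4. Without either of those KO GCB libraries, the 1 member called by limma was the Il5ra region whose centre lay 14442 bp from the start. From C to KO GCB, 21 became 61 and 1 without C GCB replicate 1 and 2, 5 without either KO nB library, 2 and 10 without KO BMPC replicate 1 and 2, 10 and 11 without C nB replicate 1 and 2, and 12 and 13 without C BMPC replicate 1 and 2. From C to KO nB, 2 and 1 were called without C nB replicate 1 and 3. The other cell type comparisons ran from 47 to 54 members from C nB to C BMPC, 16 to 22 from C nB to C GCB and 31 to 40 from C GCB to C BMPC, and both interactions from 0 to 1 regions (1 against GCB without C BMPC replicate 1, KO GCB replicate 1 or KO GCB replicate 4, and 1 against nB without C nB replicate 1). The shallow GCB libraries limit what low regions can show.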
